A study of Homo sapiens with 4 samples.

Results

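Interferon-stimulated genes, 52 in all, were read out in HT-29 cells, a human colorectal cancer line that carries truncated APC. The genes were taken as a named list of known targets of interferon signaling and matched by GENCODE v29 symbol to the identifiers of the deposited tables, which list 19729 genes. All 52 were found (DDX58 is now named RIGI). A mean over the libraries of at least 10 was reached by 37 of them, 14 stayed under it with values above 0, and SAMD9L was listed at 0 in every library.

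Cells had been stably transduced with a lentivirus encoding a doxycycline (DOX)-inducible shRNA against APC or, as the control, a non-silencing shRNA (NonS). Both kinds of cell received 500 ng/ml DOX for 72 h, so the controls carried the vector and the drug as well. The line is microsatellite stable and BRAF-V600E mutant, and cells were used a few passages after transduction. Duplicate libraries numbered I and II were made per shRNA, 4 in all, from poly(A) RNA. Nothing in the labels says that libraries with the same number share a day or a batch, and p-values measure only the spread between these libraries.

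Interferons are secreted proteins that bind receptors on the same or neighboring cells. Type I and type III interferons activate the kinases JAK1 and TYK2 at the receptors, and STAT2 then enters the nucleus in a complex with IRF9 that binds interferon-stimulated response elements in promoters. The induced genes encode viral RNA sensors, the ISG15 modifier, membrane proteins that block virus entry or release, enzymes that act on double-stranded RNA, and the transcription factors themselves. Sensors such as RIG-I and MDA5 start the same response from inside the cell when they meet foreign RNA, and colonic epithelium responds to type III interferon in particular.

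The element that this complex reads was searched for in the promoters of the genes. RefSeq promoter windows (GRCh38.p14, 250 bases before the annotated start) were at hand for 42 of the 52 genes. The core of the response element, a pair of GAAA tetramers with any 2 bases between them, searched on both strands, was in 22 of these 42 windows (52.4%), against 1061 of 35116 windows over all genes (3.02%). The gamma-activated site TTCNNNGAA, which reads the same on both strands, was in 10 of the 42 (23.8%), against 6.57% of all windows. Both motifs were in 6 of the 42 windows, and in 3 of them the matches overlapped. The stretches below, each the longest part of its window outside GENCODE exons, belong to the 4 genes that led the difference between replicates among those with a mean of at least 10 and a complete match there, and they were chosen after their values were seen. Bases in capitals match this core or, where the match is on the other strand, its reverse complement. IFI6 lies on the minus strand (chr1:27672219-27672442) and holds 3 matches. IFI27 (chr14:94110486-94110677) holds 2 on opposite strands that point away from each other, with a TTCNNNGAA match between and across them. ISG15 (chr1:1013247-1013422) holds 2 that overlap, and OAS3 (chr12:112938224-112938351) 1 of the 2 in its window. The last 3 genes lie on the plus strand, and every stretch is written 5′ to 3′ on the strand of its gene.
IFI6: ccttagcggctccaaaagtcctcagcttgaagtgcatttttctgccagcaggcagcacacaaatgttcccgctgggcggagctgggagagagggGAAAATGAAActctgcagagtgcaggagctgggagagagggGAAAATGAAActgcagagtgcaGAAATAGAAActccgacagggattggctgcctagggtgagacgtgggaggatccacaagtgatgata
IFI27: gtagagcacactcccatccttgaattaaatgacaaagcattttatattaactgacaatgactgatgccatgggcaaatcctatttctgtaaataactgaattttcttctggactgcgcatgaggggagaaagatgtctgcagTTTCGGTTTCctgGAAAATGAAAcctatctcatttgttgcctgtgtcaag
ISG15: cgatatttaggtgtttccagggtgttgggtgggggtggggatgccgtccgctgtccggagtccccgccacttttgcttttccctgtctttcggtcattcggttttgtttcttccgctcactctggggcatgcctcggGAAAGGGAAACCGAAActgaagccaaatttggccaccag
OAS3: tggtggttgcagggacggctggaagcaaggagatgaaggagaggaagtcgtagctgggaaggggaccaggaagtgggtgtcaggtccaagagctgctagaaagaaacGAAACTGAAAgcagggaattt

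The deposited values are whole numbers that are treated here as a score of unstated scale, close to a value normalized for transcript length and depth, so depth in reads is unknown. They sum to between 398338 and 413595 per library. APC, the targeted gene, was listed at 3 and 0 in NonS I and II and at 0 in both APC shRNA libraries, which is too low to check the knockdown here. The paper reports silencing of APC mRNA and protein in this line and lists APC among its downregulated genes. All 10 epithelial markers on the list were above 0 in at least 1 library, with EPCAM between 183 and 224, but the intestinal factors CDX1 and CDX2 were near 0 (2, 2, 0 and 0, and 0, 0, 2 and 4). Of 12 leukocyte, fibroblast and endothelial markers only LYZ, which encodes lysozyme, and CD14 were above 0, LYZ at 614 to 906 and CD14 at 1 to 4. PTPRC, COL1A1 and PECAM1 were at 0 in every library.

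The interferon-stimulated genes separated the libraries by replicate number. Of the 52 genes, 47 were higher in replicate II than in replicate I within both shRNAs, against 21.9% of the 12799 genes above 0 in at least 1 library. The summed value of the 52 genes was 1400 in NonS I, 3768 in NonS II, 1875 in APC shRNA I and 6960 in APC shRNA II. Both replicate II sums were thus above both replicate I sums, and within each number the APC shRNA sum was the higher. In bulk RNA, fewer responding cells and less RNA per cell cannot be told apart.

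**Figure D1:**
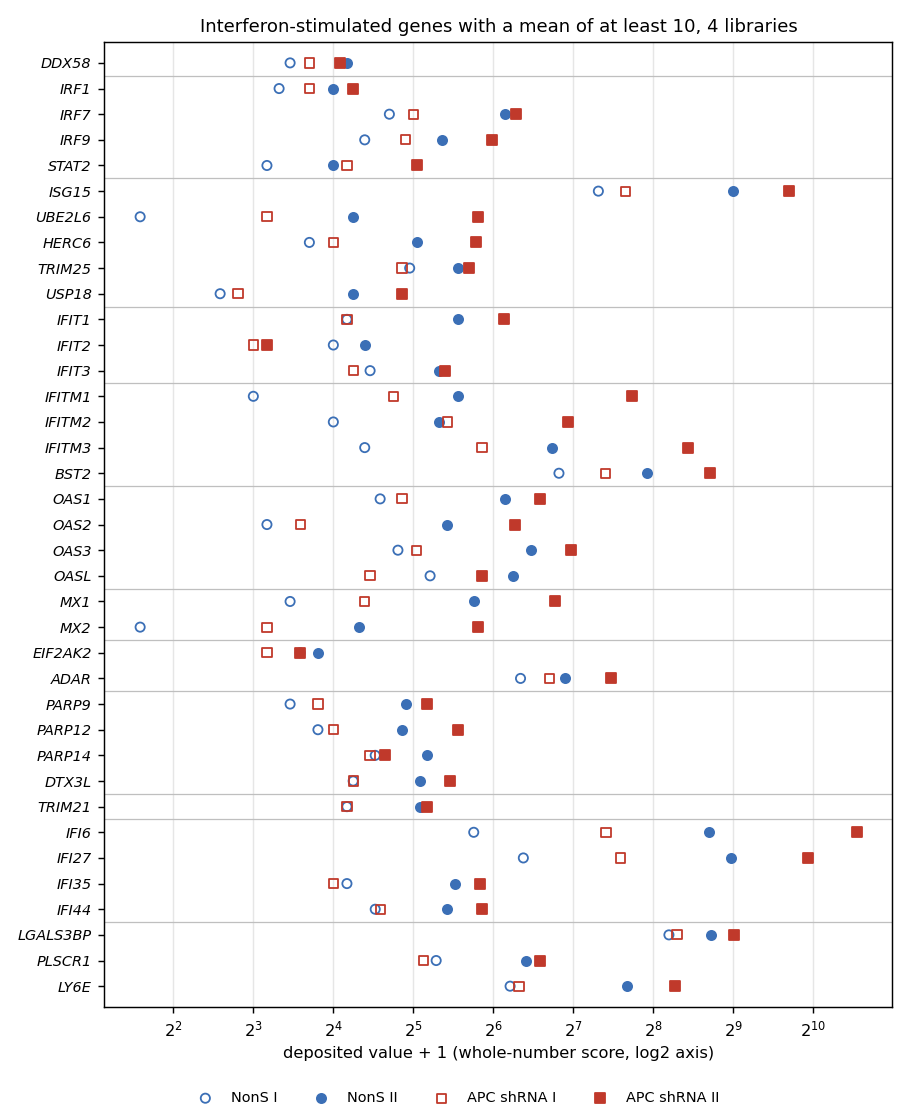
Deposited value + 1 on a log2 axis for the 37 interferon-stimulated genes whose mean reached 10, grouped by role (gray lines), 1 point per library. Circles are NonS and squares APC shRNA, open for replicate I and filled for replicate II. Filled symbols lie to the right of the open symbol of the same shape in every gene.

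Transcription factors that carry the signal were higher in replicate II. STAT2, which brings the activating part of the complex, was at 8 and 15 in NonS I and II and at 17 and 32 in APC shRNA I and II. IRF9, which gives the complex its DNA contact, was at 20, 40, 29 and 62 in the same order. IRF7, an amplifier of interferon gene transcription, was at 25, 70, 31 and 77. The replicate II value exceeded the replicate I value 1.88-fold for STAT2 in both shRNAs and, in NonS and APC shRNA, 2.80- and 2.48-fold for IRF7. IRF1, which also answers to interferon gamma and shares 22.0% of its windows of 50 bases with other transcripts, was at 9, 15, 12 and 18. STAT2 differed from the other 3 in that both APC shRNA values were above both NonS values (33% of all genes tested). IRF9 shares 43.8% of its 50-base windows with other transcripts, nearly all with the overlapping readthrough gene AL136295.5. Its value may therefore miss reads from the shared part, which was not tested.

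Sensors of viral RNA were low. DDX58, which encodes RIG-I, was at 10, 17, 12 and 16 and was the only sensor with a mean of at least 10. IFIH1, which encodes MDA5, was at 9, 14, 5 and 10, and DHX58, which encodes their relative LGP2, at 5, 12, 5 and 17. All 3 were higher in replicate II within both shRNAs. DDX60, a helicase, was at 9, 5, 2 and 3 and was not.

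ISG15, a ubiquitin-like modifier, and most genes of its conjugation were higher in replicate II. ISG15 itself was at 158 and 510 in NonS I and II and at 200 and 830 in APC shRNA I and II, 3.23- and 4.15-fold higher in replicate II. UBE2L6, the conjugating enzyme for ISG15, was at 2, 18, 8 and 55. USP18, the protease that removes ISG15 and dampens receptor signaling, was at 5, 18, 6 and 28. In all of these both replicate II libraries were above both replicate I libraries (11.8% of all genes tested). HERC6, related to the human ISG15 ligase HERC5, was at 12, 32, 15 and 54, and TRIM25, a ubiquitin ligase that acts on RIG-I, at 30, 46, 28 and 51. HERC5 was low at 3, 3, 1 and 1 and equal between replicates. USP18 shares 23.4% of its 50-base windows with other transcripts, led by its copy USP41.

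The IFITM proteins, which hold back virus fusion at membranes, gave some of the widest spans. IFITM1 was at 7 and 46 in NonS I and II and at 26 and 211 in APC shRNA I and II. IFITM3 was at 20, 105, 57 and 345, and IFITM2 at 15, 39, 42 and 121. IFITM1 was 6.57-fold higher in replicate II in NonS and 8.12-fold in APC shRNA, and within a number APC shRNA was 3.71-fold over NonS in I and 4.59-fold in II. IFITM2 was the one member of the family in which both APC shRNA values were above both NonS values (33% of all genes tested). BST2, the tetherin that keeps budding virions on the cell surface, was at 112, 242, 168 and 417. The 3 IFITM genes share 32.0% to 35.2% of their 50-base windows with other transcripts, among them each other and, most of all for IFITM3, the opposite-strand gene AC136475.5. IFITM1 and IFITM2 overlap over 351 exonic bases on the same strand, so their values may not be independent, which was not tested.

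IFIT proteins bind viral RNA ends, and their genes did not behave alike. IFIT1 was at 17 and 46 in NonS I and II and at 17 and 69 in APC shRNA I and II. IFIT3 was at 21, 39, 18 and 41, and IFIT5, low, at 5, 8, 5 and 8. IFIT2 was at 15, 20, 7 and 8, so that both APC shRNA values lay below both NonS values (27.5% of all genes tested). Its replicate II values exceeded its replicate I values by only 1.33- and 1.14-fold. IFIT1 and IFIT3 were split by replicate number (replicate II above in 11.8% of all genes tested) and not by shRNA.

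Enzymes that make the second messenger of RNase L, the OAS genes, were 2.08- to 6.91-fold higher in replicate II. OAS1 was at 23, 70, 28 and 95 in NonS I, NonS II, APC shRNA I and APC shRNA II. OAS2 was at 8, 42, 11 and 76, and OAS3 at 27, 88, 32 and 124. OASL, which has no such enzyme activity and helps RIG-I, was at 36, 75, 21 and 57. OASL was the one OAS gene with lower values in APC shRNA within both numbers, at 0.583 and 0.760 times NonS. The dynamin-like GTPases MX1 and MX2, which trap viral nucleoproteins or capsids, were higher in replicate II as well. MX1 was at 10, 53, 20 and 108 and MX2 at 2, 19, 8 and 55.

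Other double-stranded RNA enzymes spanned less. ADAR, which edits adenosine to inosine, was at 80, 118, 103 and 176, and EIF2AK2, the kinase PKR that stops translation, at 11, 13, 8 and 11. ADAR was thus 1.48- and 1.71-fold higher in replicate II and EIF2AK2 1.18- and 1.38-fold. The ADP-ribosylation genes PARP9, PARP12 and PARP14 were at 10, 29, 13 and 35, at 13, 28, 15 and 46, and at 22, 35, 21 and 24. DTX3L, the ubiquitin ligase partner of PARP9 that shares a divergent start with it, was at 18, 33, 18 and 43. TRIM21, the antibody receptor of the cytosol, was at 17, 33, 17 and 35. PARP14 stood apart in APC shRNA, where replicate II exceeded replicate I by only 1.14-fold.

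The interferon-alpha inducible genes included the widest replicate difference among all genes tested, taken as the mean over the 2 shRNAs. IFI6, a membrane protein of endoplasmic reticulum and mitochondria, was at 53 and 413 in NonS I and II and at 169 and 1489 in APC shRNA I and II. IFI27 was at 82, 500, 191 and 973. IFI35 was at 17, 45, 15 and 56, and IFI44 at 22, 42, 23 and 57. IFI6 was 7.79- and 8.81-fold higher in replicate II and 3.19- and 3.61-fold higher in APC shRNA, and its 4 values rank in the order NonS I, APC shRNA I, NonS II, APC shRNA II. LGALS3BP, a secreted glycoprotein, was at 292, 422, 313 and 514, PLSCR1, a phospholipid scramblase, at 38, 84, 34 and 95, and LY6E, a surface protein that blocks coronavirus fusion, at 73, 203, 79 and 307. Both replicate II values were above both replicate I values in each of these 7 genes (11.8% of all genes tested).

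The remaining genes stayed under a mean of 10 and were not tested. IFI44L was at 1, 6, 4 and 22 and EPSTI1 at 1, 7, 3 and 16 in NonS I, NonS II, APC shRNA I and APC shRNA II. RSAD2, which encodes viperin, was at 3, 9, 2 and 12 and its divergent neighbor CMPK2 at 2, 11, 2 and 16. SP110 was at 3, 10, 4 and 12, XAF1 at 2, 6, 2 and 8, and ISG20, an exonuclease, at 5, 10, 6 and 12. These 7 were all higher in replicate II within both shRNAs, at values where rounding weighs heavily, and XAF1 shares 34.7% of its 50-base windows with other transcripts. TRIM22 was at 2, 2, 1 and 8 and SAMD9 at 10, 2, 1 and 4, without a shared direction. Together with IFIH1, DHX58 and IFIT5, 10 of the 15 genes under the mean of 10 were higher in replicate II within both shRNAs. Of all 12799 genes above 0 in at least 1 library, at any mean, 21.9% were. The share over genes under a mean of 10 alone is not reported here.

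Replicate II was compared with replicate I over all genes tested, with the shRNA as a term (limma on log2(value + 1)). Over the 37 genes tested the median log2 difference was 1.32 in NonS and 1.46 in APC shRNA, against 0.00 and 0.04 over all 5376 genes tested. A difference of at least 1 on the log2 scale within both shRNAs was reached by 23 of the 37, where 0.763% of all genes tested reached it. Over all genes above 0 it was reached by 30 of 51, against 0.859%. Since the mean of 10 favors genes that are high in replicate II, the count was repeated where every library had at least 10, and 18 of 28 genes reached it against 0.577% of 4682. IFI6 ranked first of the 5376 genes by mean difference (3.04 ± 0.08, SE, n = 4 libraries), followed by IFITM1, MX2 and UBE2L6. With 1 library per shRNA and number, that SE rests on how far the difference disagreed between the shRNAs, moderated by limma across genes. It does not measure the spread among libraries of the same number. Of the 10 genes at the top 9 were interferon-stimulated, and 26 of the top 50 were. In 33 of the 37 genes both replicate II libraries were above both replicate I libraries, against 11.8% of all genes. The exceptions were STAT2, IFIT2, IFITM2 and EIF2AK2.

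No gene passed the adjusted test with the values as deposited: limma with Benjamini-Hochberg adjustment called 0 of the 37 and 0 of 5376 genes (0%) higher in replicate II, and 0 lower, with adjusted p between 0.193 and 0.283 for the 37. At an unadjusted p under 0.05, 35 of the 37 were higher in replicate II, against 13% of all genes. This fit leaves 1 residual degree of freedom, and the call depended on the scaling. With median-of-ratios scaling 34 of the 37 were called higher (5.62% of all genes), with equal totals 33 (3.35%), with upper-quartile scaling 35 (6.42%) and after removal of a GC content trend 32 (2.22%). IFIT2 was called in none of these 4 fits, EIF2AK2 only after the GC correction and PARP14 only with upper-quartile scaling.

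**Figure D2:**
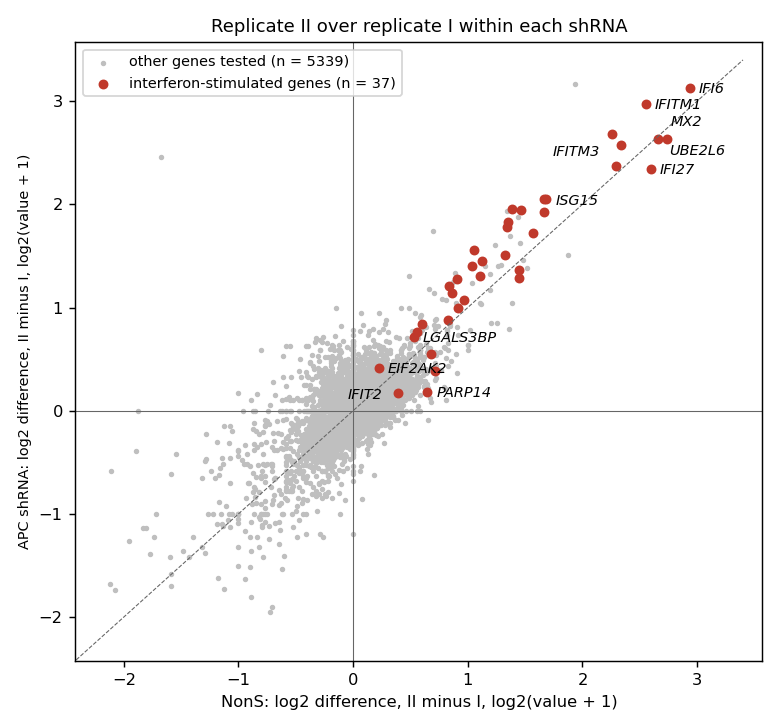
Difference in log2(value + 1) of replicate II over replicate I in NonS (x axis) and in APC shRNA (y axis), for 37 interferon-stimulated genes (red) and 5339 other genes tested (gray), with equality dashed. All 37 lie above 0 on both axes, IFI6 farthest out, and IFIT2, PARP14 and EIF2AK2 lie nearest to 0.

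APC shRNA was compared with NonS to ask whether silencing APC moved these genes. Within replicate I the median log2 difference of the 37 genes was 0.27, and within replicate II 0.57, against 0.00 and 0.02 over all genes tested. APC shRNA was above NonS within both numbers in 25 of the 37 (41.2% of all genes tested), and below in 4, IFIT2, OASL, EIF2AK2 and PARP14 (36.9%). Over all 51 genes above 0 these counts were 29 (31.6%) and 7 (28.6%). The largest differences, in replicates I and II, belonged to IFITM1 (1.75 and 2.17), IFI6 (1.65 and 1.85), UBE2L6 (1.58 and 1.56), MX2 (1.58 and 1.49), IFITM3 (1.47 and 1.71) and IFITM2 (1.43 and 1.61). Groups did not overlap in STAT2 and IFITM2, with APC shRNA above (33% of all genes), and in IFIT2, with APC shRNA below (27.5%).

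With the spread between replicates as the error, limma called 0 of the 37 higher in APC shRNA and 0 lower at an adjusted p under 0.05, where it called 4.33% of all 5376 genes higher and 3.7% lower. At an unadjusted p under 0.05 it picked IFIT2 alone of the 37 (35.6% of all genes), with a log2 difference of -1.11 ± 0.18 (SE, n = 4 libraries) and an adjusted p of 0.0613. IFIT2 passed under each of 3 other scalings. For IFI6 the log2 difference was 1.75 ± 1.71 (SE) with an adjusted p of 0.506, and for STAT2 1.02 ± 0.48 with an adjusted p of 0.235, both from limma without a block. With the replicate number as a block, limma called 10 of the 37 higher (9.73% of all genes), IRF9, STAT2, UBE2L6, IFITM1, IFITM2, IFITM3, MX1, MX2, IFI6 and IFI27, and IFIT2 lower (9.3%), though the labels do not say that the numbers pair libraries. In that blocked fit the SE was 0.08 for IFI6 and 0.04 for STAT2, each with a limma adjusted p of 0.0468. The blocked SE rests on how far the shRNA difference disagreed between the replicate numbers, moderated by limma across genes. With a library left out, the fit without a block compared 2 libraries with 1, so the median also carried the difference between replicates. The median log2 difference was 0.35 with all 4 libraries, -0.28 without NonS I and 1.03 without NonS II. It was 1.22 without APC shRNA I and -0.39 without APC shRNA II. Within replicate I and within replicate II, where the numbers are balanced, it was 0.27 and 0.57.

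**Figure D3:**
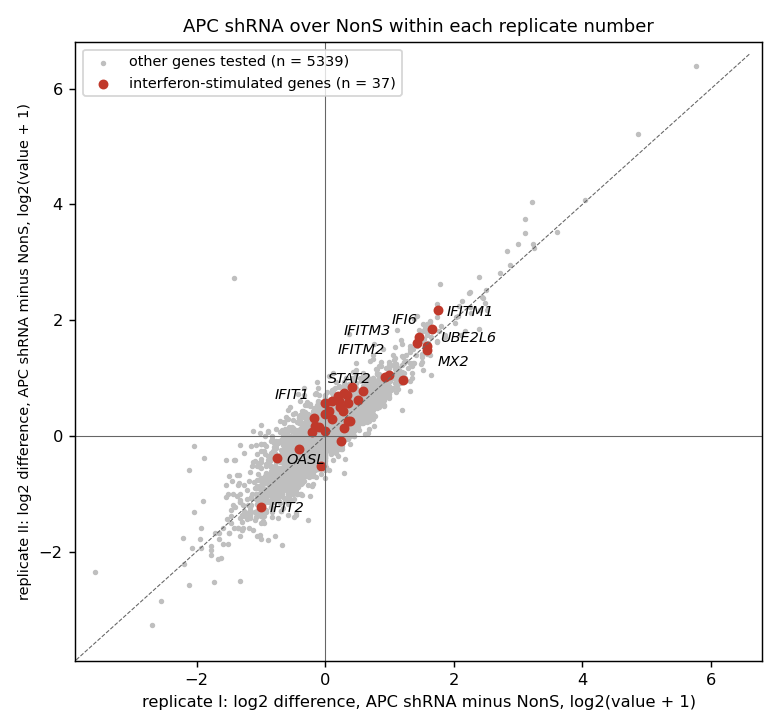
Difference in log2(value + 1) of APC shRNA over NonS within replicate I (x axis) and within replicate II (y axis), for 37 interferon-stimulated genes (red) and 5339 other genes tested (gray), with equality dashed. IFITM1 and IFI6 lie farthest up among the red points and IFIT2 farthest down, all inside the range of the gray points.

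The step from replicate I to replicate II was larger in APC shRNA than in NonS in 28 of the 37 genes (46.1% of all genes tested), by a median of 0.20 on the log2 scale over the 37. It was larger by 0.5 or more in IFIT1 and PARP12 only (4.17% of all genes). With 1 library per shRNA and number, this difference between steps has no replicate and was not tested.

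Genes upstream of the list were examined for the same split. Of 36 genes for interferons, receptors, kinases, sensors and adaptors, 9 had a mean of at least 10, 21 were lower and 6 were at 0. The interferon genes on the list were all at 2 or less in every library. TMEM173, which encodes the DNA sensing adaptor STING, was at 11, 19, 12 and 22, and MYD88, the adaptor of Toll-like receptors, at 17, 24, 22 and 30. With the values as deposited limma called 0 of the 9 in either comparison. Over all genes tested it called 0% between replicates, and 4.33% higher and 3.7% lower in APC shRNA. At an unadjusted p under 0.05 it picked 5 of the 9 as higher in replicate II (13% of all genes). Between the shRNAs it picked IFNGR1 alone of the 9 (limma unadjusted p = 0.0268), against 35.6% of all genes. With median-of-ratios scaling limma called 3 of the 9 higher in replicate II (5.62% of all genes). Among the 3 were TMEM173 (limma adjusted p = 0.00264) and MYD88 (limma adjusted p = 0.0185). JAK1, the kinase at the receptors, was at 16, 18, 19 and 19, STAT3 at 18, 21, 21 and 25, and MAVS, the adaptor of RIG-I, at 13, 15, 14 and 15. IRF3, the factor that starts interferon transcription, was at 58, 67, 59 and 65. The interferon gamma receptor genes IFNGR1 and IFNGR2 were at 33, 28, 23 and 21 and at 17, 21, 13 and 17. IFNGR1 was lower in replicate II within both shRNAs, and both its APC shRNA values were below both NonS values (27.5% of all genes).

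Genes with and without the response element core in the promoter window were alike higher in replicate II. Among genes tested, the median log2 difference of replicate II over I was 1.49 in the 14 with the core and 1.02 in the 15 without, and the ranges, 0.42 to 3.04 and 0.32 to 2.65, overlapped almost fully. UBE2L6 led those without it. All 250 bases of the windows of UBE2L6 and IRF9, without the core, lay in GENCODE exons of either strand. The same held for PARP12 and PLSCR1, with the core, so some windows may not lie upstream of the GENCODE start. The comparison is a description of windows of fixed length, in which a missing match says only that these letters were not there.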

How the data were processed

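RNA-Seq of 4 HT-29 libraries (NonS and APC shRNA, I and II, grouped by the sample titles) was used. Per the paper's methods, 50 base single reads from a stranded library kit were quality filtered, trimmed of polyA, mapped with TopHat2 to human genome assembly 38 and counted with htseq-count against GENCODE v29. Its strand option is not given in the sources used here. The submitters' processing notes list hg19, bcl2fastq 2.19.0.316 and DESeq2 1.4.1. For each library the authors deposited a whole number per gene, used here as a score of unstated scale: replicates of low genes varied at 0.484 (NonS) and 0.364 (APC shRNA) times the Poisson variance, and value times longest transcript in kb summed to 980841 to 984873. Count models were therefore not run. The authors' table of means, fold changes and adjusted p-values was not used.

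Values were compared as log2(value + 1) in 5376 genes whose mean reached 10, by limma 3.58.1 in R 4.3.3 (lmFit, eBayes with a mean-variance trend), Benjamini-Hochberg adjusted over all genes tested. Differences are on that log2 scale, which understates changes of low genes, and folds are ratios of deposited values. An exact permutation test of 2 against 2 libraries cannot go below p = 0.333 and was not run. Alternatives covered scaling, filters (a mean of 8, a total of 1, 10 in every library), pseudocounts of 0.1 and 5, moderation, GC content (loess, span 0.5), each library left out and the study's thresholds (fold 4, adjusted p 0.01). Limma was tested on simulated data with 200 genes changed. Of 4-fold changes it recovered 97.5% between conditions and 4% between replicates, and of 16-fold changes 87.5% between replicates. The difference between replicates put into the simulated conditions was far smaller than that of the listed genes. The 97.5% therefore does not apply to them.

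Members and lists were chosen with earlier results of these data known. Counts of members over genes above 0 and over genes with 10 in every library were added after seeing the data. Genes named were all members by their values, and upstream genes whose mean reached 10. Promoters came from RefSeq (GRCh38.p14) and exons and shared 50-base windows from GENCODE v29, also GRCh38. Promoter windows of 10 members and protein sequences were not analysed here, and 1 upstream gene is not reported here.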

Additional observations from a re-analysis of the deposited data

Results flagged for a closer look

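Several genes went opposite ways in the 2 pairs of libraries of a comparison, which was not tested for any of them. On the log2(value + 1) scale, the APC shRNA over NonS difference was above 0 in replicate I and below 0 in replicate II for DDX58 (0.24 and -0.08, a difference of -0.32). It was below 0 in replicate I and above 0 in replicate II for TRIM25 (a difference of 0.24), IFIT3 (0.28), PLSCR1 (0.33), IFI35 (0.48), RSAD2 (0.79), TRIM22 (2.17) and SAMD9 (3.20). Replicate II over I was below 0 in NonS and above 0 in APC shRNA for DDX60 (a difference of 1.15) and SAMD9 (3.20). RSAD2, TRIM22, SAMD9 and DDX60 have means under 10, where a unit of rounding is a large step.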

How the results depend on the processing

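With the values as deposited, 0 members tested were called higher or lower in APC shRNA. Under median-of-ratios, equal totals and upper-quartile scaling 1 was lower (IFIT2), and with genes summing to 1 or more also 1 (HERC5, at 3, 3, 1 and 1). HERC5 had equal whole numbers in both replicates, which left no spread as its own error. The shares of all genes called lower in these fits are not reported here. Numbers I and II appear in both shRNAs, but the labels do not say that they pair libraries. The difference of replicate II over I correlated at 0.724 between shRNAs across genes (0.675 without the members), given as a description. With the replicate block 10 members were called higher (9.73% of all genes) and 1 lower (9.3%), and after GC correction in the same block 18 (22.7%) and 2 (23.4%). The median APC shRNA over NonS difference ran from -0.39 to 1.22 with a library left out. Those fits had no replicate block and compared 2 libraries with 1, so they also carry the difference between replicates. Members called higher in replicate II went from 0 to 34 under median-of-ratios (5.62% of all genes), 33 under equal totals (3.35%) and 35 under upper-quartile scaling (6.42%). With GC content correction 32 were called (2.22%). The prior degrees of freedom that limma estimated were 1.14 as deposited and 5.80, 3.83, 39.7 and 3.03 in these 4 fits, and the cause was not tested. With genes summing to 1 or more, 2 of 51 were called (UBE2L6 and IFIT5), and the share of all genes is not reported here. IFIT5, at 5, 8, 5 and 8, had the same step in both shRNAs, which left no spread as its own error. A pseudocount of 5 moved the median of replicate II over I from 1.37 to 1.20. The other filters, pseudocounts and no mean-variance trend left these counts at 0, as did the study's thresholds. Leaving out a library leaves the replicate comparison with no test. Whole-number values and unknown depth limit genes near 10 most.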
